A study of Mus musculus with 6 samples.

Results

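Serine, glycine and cysteine metabolism was followed through 9 enzymes: Phgdh, Psat1, Psph, Shmt1, Shmt2, Mthfd2, Mthfd1l, Gcat and Cth. They are 9 of the 28649 gene names in the count matrices, and all 9 were listed in each of the 6 libraries. They were taken by symbol and chosen by their CPM by cell type and by hairpin label in these same libraries, so those values are given as a description without a test. The series profiled single cells of a mouse model of triple-negative breast cancer, and its title ties Pgk1 to NF-kB signalling and to macrophages that are M2-like. The labels name 4T1 cells, an epithelial mouse mammary cancer line, that received lentivirus with a non-targeting hairpin (shNC, 3 libraries) or a hairpin against Pgk1 (shPgk1, 3 libraries). Puromycin at 2 µg/mL was added after 48 hours and kept for 7 days to make stable lines, so both groups carry a hairpin and went through the same selection. The libraries also held immune and stromal cells, about which the labels say nothing. The sources used here do not give the hairpin sequence, its promoter, or any host animal and its age. Nor do they say whether the libraries of a group came from separate animals or cultures, so the spread between libraries may be technical.

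Phgdh, Psat1 and Psph turn 3-phosphoglycerate, the product of Pgk1 in glycolysis, into serine. Shmt1 in the cytosol and Shmt2 in mitochondria split serine into glycine and a one-carbon unit carried by folate, and the mitochondrial enzymes Mthfd2 and Mthfd1l pass that unit on to formate, which feeds the synthesis of purines and thymidylate. Gcat makes glycine in the breakdown of threonine, and Cth releases cysteine from cystathionine in the last step of transsulfuration, a route to glutathione.

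On GRCm38 with the GENCODE M21 annotation, Phgdh lies at chr3:98313170-98339990, Psat1 at chr19:15904678-15947337, Psph at chr5:129765558-129787449, Shmt1 at chr11:60788104-60811718, Shmt2 at chr10:127517123-127522444, Mthfd2 at chr6:83305691-83325908 and Cth at chr3:157894248-157925077, each on the minus strand. Mthfd1l, at chr10:3973118-4167081, and Gcat, at chr15:79030874-79038353, are on the plus strand, and a second gene model of the same name overlaps Gcat. The promoter table from RefSeq (GRCm38.p6) holds 8 of the 9 genes, all but Cth. The 250 bases before each start were searched on both strands for 4 motifs. The letters TGATGNAA, an element bound by ATF4 and its partners, were found for 0 of 8 genes and for 3.91% of the 27025 genes in the table. The E2F letters TTTCCCGC and TTTGGCGC were also found for 0 of 8, against 1.03% and 0.485% of all genes. The CCAAT box was found for 5 of 8, against 37.5% of all genes. The 100 bases before the RefSeq start of these 5 genes are shown because all 5 were higher in cells with a high share of cell-cycle RNA, as were Shmt2, Mthfd1l and Gcat, which hold no match. Each runs 5′ to 3′ on the gene's own minus strand, at chr3:98339970-98340069 (Phgdh), chr19:15925060-15925159 (Psat1), chr5:129787254-129787353 (Psph), chr11:60811266-60811365 (Shmt1) and chr6:83317605-83317704 (Mthfd2). Capitals mark CCAAT or its reverse complement, ATTGG.
Phgdh: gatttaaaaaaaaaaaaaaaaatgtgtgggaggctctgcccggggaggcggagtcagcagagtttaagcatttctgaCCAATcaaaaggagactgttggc
Psat1: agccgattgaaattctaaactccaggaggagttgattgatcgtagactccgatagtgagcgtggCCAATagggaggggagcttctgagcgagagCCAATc
Psph: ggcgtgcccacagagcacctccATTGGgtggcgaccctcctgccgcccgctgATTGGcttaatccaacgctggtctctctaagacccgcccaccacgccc
Shmt1: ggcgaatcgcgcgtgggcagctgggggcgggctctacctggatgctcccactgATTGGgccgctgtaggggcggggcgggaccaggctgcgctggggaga
Mthfd2: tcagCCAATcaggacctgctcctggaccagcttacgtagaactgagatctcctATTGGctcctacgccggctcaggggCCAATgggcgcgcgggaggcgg
The Mthfd2 stretch held 3 matches, those of Psat1 and Psph 2 each, and those of Phgdh and Shmt1 1 each. A match is a run of letters and not a measured binding site. The Psat1, Psph, Shmt1 and Mthfd2 stretches lie inside the wider GENCODE gene spans, because those spans include starts farther upstream.

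Of 42902 barcodes, 41455 cells were kept, 6104 to 7558 per library. Total counts per library were 78778073 to 128933960, and the median count of unique transcripts (UMIs) per cell was 7983 to 11521.5. Clustering gave 7 lineages with at least 20 cells in every library: epithelial tumour-like cells (20656), cells of the Csf1r/Cd68 lineage (12610), T or NK-like (2829), fibroblast-like (1937), neutrophil-like (1498), conventional dendritic-like (705) and endothelial-like cells (436). The Csf1r/Cd68 lineage, named for its monocyte and macrophage markers, joins 3 clusters, of which the 2 largest did not pass the marker rule for a name and were joined after their values were seen. In epithelial tumour-like cells Pgk1 RNA, as counts per 1000000 UMIs (CPM), was 266, 229 and 213 for shNC and 235, 287 and 312 for the libraries labelled shPgk1. The log2 difference was 0.38 ± 0.14 (SE; edgeR adjusted p = 0.0884, n = 3 per group). Over all cells Pgk1 was 351, 341 and 313 CPM against 324, 324 and 349. Pgk1 RNA was therefore not measurably lower under the label that names its knockdown, and the groups are called by their labels throughout.

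Of the serine synthesis enzymes, Phgdh was highest in tumour-like and T or NK-like cells, and Psat1 and Psph had their highest means in T or NK-like cells. A lineage's level is its UMIs summed per library and given as CPM, with the mean ± SD over 6 libraries. Phgdh, the first and committed enzyme of the route, stood at 84.6 ± 9.64 CPM in tumour-like cells and 71.7 ± 6.67 in T or NK-like cells, and these 2 ranges overlapped (70.0 to 93.4 and 59.0 to 78.7). A gap separated both from fibroblast-like cells at 18.7 ± 2.79. Neutrophil-like cells followed at 12.4 ± 6.67, conventional dendritic-like cells at 11.9 ± 6.12, endothelial-like cells at 8.16 ± 2.77 and the Csf1r/Cd68 lineage at 7.96 ± 1.56, with each neighbour in this order overlapping the next. Psat1, the aminotransferase of the second step, was highest in T or NK-like cells at 22.7 ± 5.12 CPM, before tumour-like cells at 13.2 ± 2.34 and fibroblast-like cells at 10.9 ± 2.05. Conventional dendritic-like cells (8.51), the Csf1r/Cd68 lineage (8.36 ± 1.22), endothelial-like cells (6.77) and neutrophil-like cells (4.22) followed, and all neighbours overlapped. Psph, the phosphatase that releases serine, stood at 67.8 ± 5.88 CPM in T or NK-like cells, and all 6 values lay above those of every other lineage. Fibroblast-like cells (40.3 ± 4.27) and tumour-like cells (38.7 ± 2.64) came next and overlapped, and the Csf1r/Cd68 lineage stood at 25.2 ± 1.75. The lowest mean, 17.3 ± 9.25, was in neutrophil-like cells, where 1 library with 0 counts allows up to 15.9 CPM.

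The enzymes that take one-carbon units from serine differed in their order. Shmt1 stood at 9.41 ± 0.561 CPM in tumour-like cells and 9.20 ± 2.11 in T or NK-like cells, overlapping each other and above the 3.72 ± 0.686 of the Csf1r/Cd68 lineage. Its mean in neutrophil-like cells, 11.1 ± 12.8, rests on 1 library of 63 such cells at 37.1 CPM, and each neutrophil-like value came from 4 to 8 counts. Shmt2 values overlapped between T or NK-like (38.0 ± 4.74 CPM), fibroblast-like (36.4 ± 6.18) and tumour-like cells (34.4 ± 2.11). Endothelial-like cells followed at 22.6 ± 3.72, all below the tumour-like values, although their highest value, 29.7, overlapped fibroblast-like and T or NK-like cells. The Csf1r/Cd68 lineage stood at 19.4 ± 4.01, and its highest value, 24.9, lay below those 3 lineages. Mthfd2 was the one enzyme of the 9 whose level was highest in conventional dendritic-like cells, at 63.8 ± 3.89 CPM, beside 55.6 ± 4.02 in T or NK-like cells. These ranges overlapped, and both were above fibroblast-like cells (38.6 ± 6.43), the Csf1r/Cd68 lineage (26.3 ± 3.52) and tumour-like cells (20.6 ± 2.98). Mthfd1l was highest in T or NK-like cells at 39.6 ± 4.28 CPM, with no overlap with tumour-like cells at 23.5 ± 3.42.

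The glycine and cysteine enzymes Gcat and Cth were highest in tumour-like cells. Gcat stood there at 43.0 ± 5.61 CPM, and its lowest value, 36.4, lay above every value elsewhere. The next lineages were conventional dendritic-like cells at 13.9 ± 3.34 and T or NK-like cells at 12.7, and the Csf1r/Cd68 lineage stood at 7.52 ± 1.64. Cth stood at 2.95 ± 1.09 CPM in tumour-like cells, with a lowest value of 1.83. Of the other lineages, conventional dendritic-like cells alone overlapped it, with 2 shNC libraries above 1.83 CPM from at most 5 counts. Its other means were 0.910 ± 0.472 in fibroblast-like cells, 0.488 ± 0.224 in the Csf1r/Cd68 lineage and 0.341 in T or NK-like cells, where a library gave 1 to 2 counts. Cth was at 0 in 2 conventional dendritic-like, 3 endothelial-like and 3 neutrophil-like sums, each allowing between 1.89 and 15.9 CPM.

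**Figure D1:**
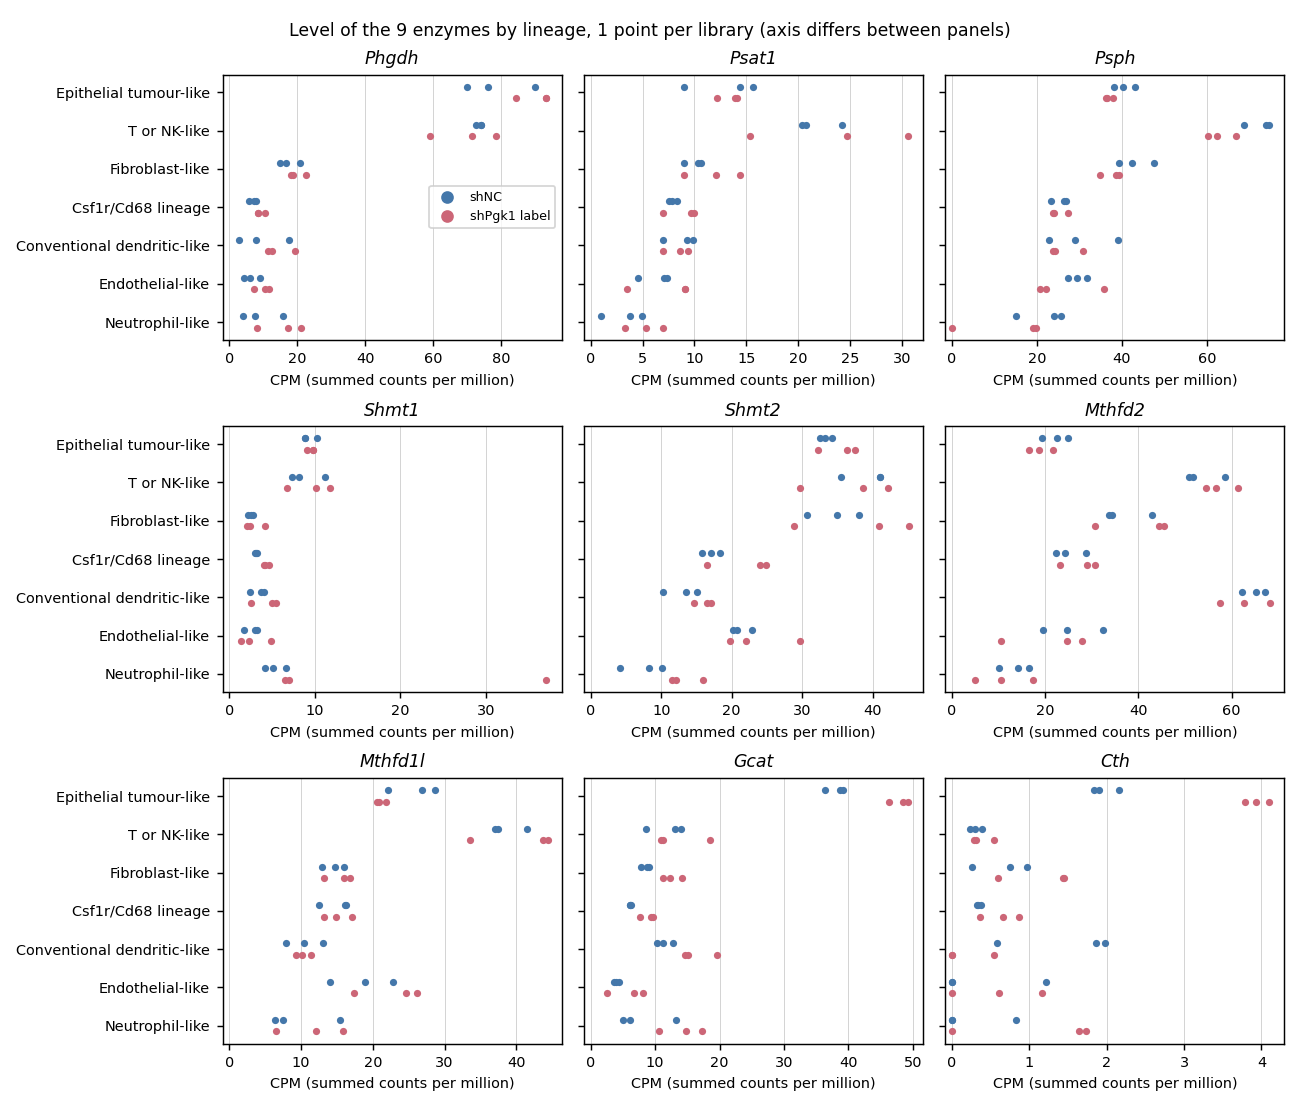
Level of each enzyme (CPM, linear axis that differs between panels) in the 7 lineages; each point is 1 library, coloured by its hairpin label. Phgdh is highest in tumour-like and T or NK-like cells, Mthfd2 in conventional dendritic-like and T or NK-like cells, and Gcat in tumour-like cells.

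RNA released from broken cells can enter any droplet, so levels outside the tumour-like cells were set beside a marker background. Not every enzyme and lineage is given. The 11 epithelial markers summed reached 6.69 to 11.5% of their tumour-like level in the Csf1r/Cd68 lineage. Phgdh reached 7.40 to 11.1% of its own tumour-like level there, which is not above that range. Its level in this lineage is not set apart from background, and the source of this RNA was not tested. In endothelial-like cells Phgdh was likewise at 6.09 to 12.5% beside markers at 9.57 to 13.8%. In T or NK-like cells, by contrast, Phgdh was at 70.0 to 104% and the summed markers at 7.39 to 13.3%. The markers taken one by one had medians of 8.36 to 68.9% there. Conventional dendritic-like cells had Phgdh at 3.79 to 25.2% and markers at 7.48 to 16.6%, and neutrophil-like cells had 5.38 to 22.7% and 9.02 to 23.1%, so Phgdh was not apart from background there either. Gcat in the Csf1r/Cd68 lineage was at 15.4 to 20.1%, above the summed markers but inside the range of the 11 markers taken one by one, whose medians over the libraries ran from 8.29 to 26.2%, and it is not set apart from background. In endothelial-like cells Gcat was at 5.36 to 16.5%, again overlapping the markers. Gcat in T or NK-like cells was at 22.3 to 38.7%, inside the range of single markers there. Phgdh in fibroblast-like cells was at 18.4 to 27.2%, also inside that lineage's range of single markers (10.9 to 37.3%). Both were above the summed markers, and neither is set apart from background. Cth in the Csf1r/Cd68 lineage spanned 9.28 to 22.8%, also inside the range of single markers. The other 6 enzymes in that lineage were above both ranges, from Shmt1 at 31.2 to 51.7% to Mthfd2 at 97.6 to 154%.

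**Figure D2:**
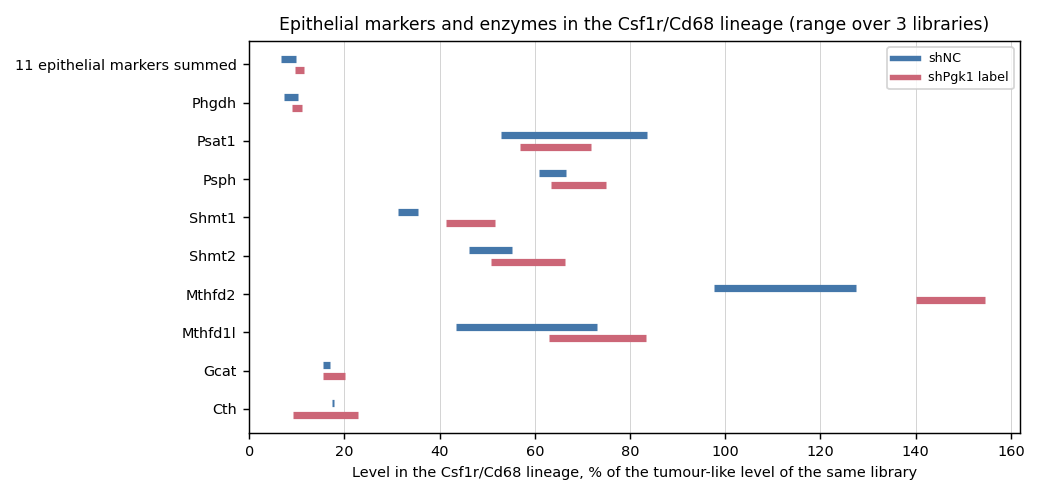
Level in the Csf1r/Cd68 lineage as a percentage of the tumour-like level of the same library, for the 11 epithelial markers summed and for each enzyme; bars span the lowest to the highest of 3 libraries per label. Phgdh lies on the marker range of 6.69 to 11.5%, and Mthfd2 reaches 97.6 to 154%.

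The genes nearest to each enzyme were found by Pearson r of log2(CPM + 1) over the 42 sums of 7 lineages and 6 libraries. The sums of a library share its depth and free RNA, so r is a description. Phgdh was nearest to Prkca (0.90), Gata3 (0.89) and Acsbg1 (0.89). Psat1 was nearest to Nme1 (0.86), Fdx1 (0.85) and Zfr (0.85), and Psph to Hp1bp3 (0.92), Gmps (0.91) and Nrip1 (0.90). Shmt1 had lower best values, with Ezr (0.76), Axin1 (0.76) and Eif4a2 (0.75), while Shmt2 was nearest to Hdgf, Ddx1 and Eef1d at 0.90 each. Mthfd2 was nearest to Jtb (0.83), Sec61b (0.83) and Zbtb8os (0.82), and Mthfd1l to genes that include Zfp64 (0.86) and Ncl (0.85). Gcat was nearest to Bin1 (0.88), Stard10 (0.87) and Ndufb9 (0.86), and Cth to Tslp (0.76), Prkg2 (0.73) and Nudt9 (0.73). Among the 9 enzymes themselves, r was highest for Psat1 with Shmt2 (0.82), followed by Phgdh with Psat1 (0.73) and Phgdh with Gcat (0.72), and lowest for Psph with Shmt1 (-0.22).

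In tumour-like cells, Cth showed the largest difference between the labels among the 9 enzymes. The shNC libraries had 1.83, 2.16 and 1.90 CPM and those labelled shPgk1 had 4.09, 3.93 and 3.79, from 63 to 77 and 232 to 297 counts. The groups did not overlap, and the log2 fold was 1.15 ± 0.15 (SE, n = 3 per group). Folds come from edgeR after TMM scaling, which sets the libraries level on the bulk of genes. Gcat stood at 39.1, 38.7 and 36.4 CPM against 49.3, 46.3 and 48.5, again without overlap, with a log2 fold of 0.47 ± 0.09. Phgdh stood at 90.1, 76.3 and 70.0 CPM against 93.4, 84.4 and 93.3, where the highest shNC value lay among those labelled shPgk1, with a log2 fold of 0.34 ± 0.12. Psat1 (0.18 ± 0.18) and Shmt1 (0.17 ± 0.11) also overlapped, and so did Shmt2 (0.23 ± 0.10), the mitochondrial enzyme, at 34.2, 33.3 and 32.6 CPM against 32.3, 36.3 and 37.5. Mthfd2 stood at 24.8, 22.5 and 19.2 CPM against 18.7, 16.6 and 21.6, with a log2 fold of -0.09 ± 0.13.

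Psph and Mthfd1l were the enzymes with lower CPM in all 3 libraries labelled shPgk1. Psph stood at 38.1, 43.2 and 40.2 CPM against 38.0, 36.4 and 36.2, and the gap between the groups was small. Its log2 fold was 0.01 ± 0.08 after TMM scaling and -0.14 ± 0.09 on plain CPM, so its sign depends on the scaling. Mthfd1l stood at 22.2, 28.7 and 26.9 CPM against 21.9, 20.9 and 20.5, with log2 folds of -0.15 ± 0.10 and -0.30 ± 0.11. On plain CPM, then, 2 of 9 enzymes lay above without overlap and 2 below, where 9.57% and 30% of all genes tested did so. With TMM scaling 4 lay above (Phgdh, Shmt1, Gcat and Cth) and 0 below, against 20.1% and 19.6% of all genes. The contrast was used to choose the enzymes, so nothing is read from these counts. The median log2 fold was 0.18 over the 9 enzymes and -0.04 over all genes tested with TMM scaling; plain CPM put the median of all genes at -0.17. The scaling moved the split of all called genes as well, from 1088 higher and 1131 lower with TMM to 247 higher and 2152 lower with plain CPM. Cth (1.01 ± 0.16), Gcat (0.33 ± 0.08) and Phgdh (0.20 ± 0.11) kept their sign on plain CPM.

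**Figure D3:**
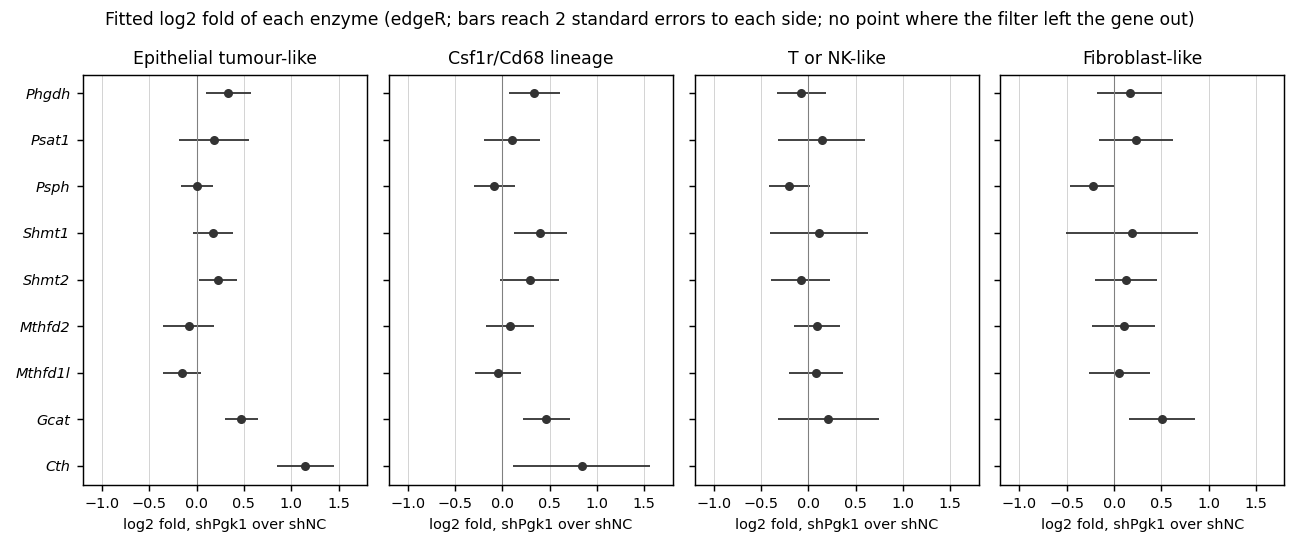
log2 fold of each enzyme, libraries labelled shPgk1 over shNC, in 4 of the lineages; points are edgeR estimates after TMM scaling and bars are 2 SE on each side, for the enzymes with enough counts to be fitted. In tumour-like cells Cth stands at 1.15 and Gcat at 0.47, and the other 7 enzymes lie between -0.15 and 0.34.

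Tumour-like cells formed 3 clusters, and their shares were compared between the labels without a test. Cluster 0, led by genes that include Krt8 and Wfdc2, made up 38.4 to 43.4% of tumour-like cells in shNC and 56.2 to 61.5% in the libraries labelled shPgk1. Cluster 3, led by genes that include Tiam2, Efna5 and Hmga2, made up 23.2 to 48.5% and 15.4 to 19.9%. Cluster 4, of low depth, made up 10.9 to 33.3% and 19.1 to 24.8%, with the second range inside the first, and held 3 of the 11 epithelial markers raised. The clusters were drawn from the expression of all cells, although none of the 9 enzymes was among the 2000 variable genes behind them, so levels between clusters are a description.

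Cth kept its difference inside cluster 0. Its level there was 1.96, 1.98 and 1.76 CPM for shNC and 4.56, 4.26 and 4.13 under the shPgk1 label, with a log2 fold of 1.16 ± 0.15. In cluster 3 the groups overlapped, at 1.64, 2.71 and 2.05 CPM against 2.54, 2.94 and 2.33, with a log2 fold of 0.32 ± 0.33. In cluster 4 the values were 1.44, 1.64 and 1.82 against 2.07, 2.59 and 1.93, without overlap and from too few counts to be fitted. Whether the Cth difference itself differed between clusters was not tested. The share of all genes apart inside a cluster was not computed, and the contrast chose the enzymes, so these values are a description.

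For Gcat and Phgdh the difference was smaller inside the clusters than over the whole lineage. Lineage and clusters were scaled separately, and TMM raised the median fold of all genes over the lineage by 0.14 beside plain CPM. The part of the scaling in a gap between lineage and cluster folds was not tested. Gcat in cluster 0 stood at 47.3, 53.6 and 44.4 CPM against 56.1, 52.8 and 53.8, with overlap and a log2 fold of 0.14 ± 0.09. Its level in cluster 3 was lower in every library, at 21.9, 21.9 and 28.9 against 25.0, 24.5 and 21.8 CPM, with a log2 fold of -0.01 ± 0.16. Cluster 4 gave 0.11 ± 0.14. Phgdh followed the same pattern, with log2 folds of 0.03 ± 0.09 in cluster 0, -0.10 ± 0.15 in cluster 3 and -0.01 ± 0.15 in cluster 4. In cluster 0 it stood at 111, 99.9 and 82.9 CPM against 105, 97.0 and 103, and the groups overlapped. Mthfd1l ran the other way between clusters. It stood at 15.5 to 16.5 CPM in shNC against 17.2 to 19.3 in cluster 0 (0.17 ± 0.08), and at 40.1 to 48.3 against 34.2 to 38.2 in cluster 3 (-0.27 ± 0.13). Shmt1 likewise had a log2 fold of 0.25 ± 0.10 in cluster 0 and -0.21 ± 0.17 in cluster 3, without overlap in either. Mthfd2 was at -0.28 ± 0.11, -0.33 ± 0.16 and -0.37 ± 0.21 in clusters 0, 3 and 4, against -0.09 ± 0.13 over the lineage. Psph was at -0.23 ± 0.09 in cluster 0, with all 3 libraries labelled shPgk1 below. Over the whole lineage 9.57% of all genes lay above and 30% below on plain CPM. The share inside a cluster was not computed, so nothing is read from enzymes that lay apart there. RNA of the Csf1r/Cd68 lineage also moved with the label: its 16 markers summed to 2028 to 3027 CPM in tumour-like cells of shNC and 1078 to 1949 under the shPgk1 label, with 6 of 16 lower without overlap and 0 of 16 at 0. Its part in these differences was not tested.

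**Figure D4:**
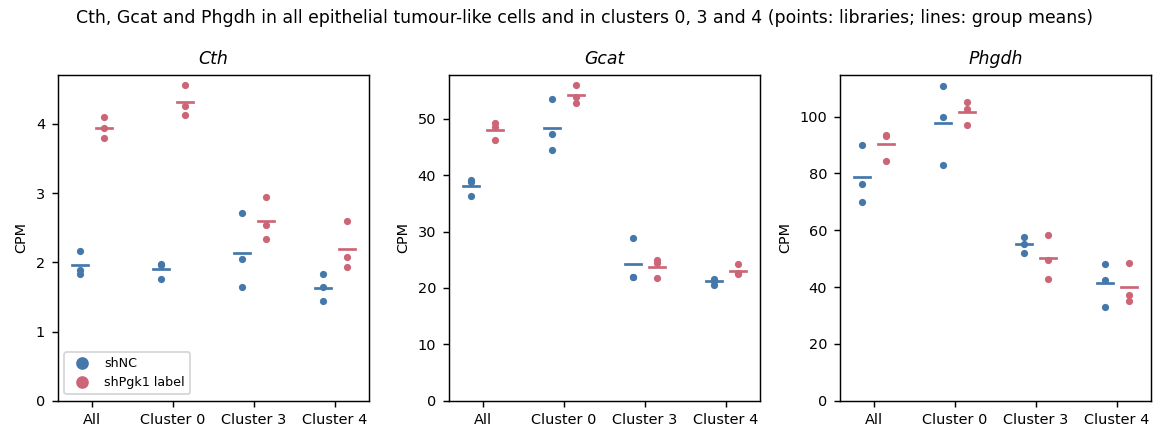
CPM of Cth, Gcat and Phgdh in all tumour-like cells and in their clusters 0, 3 and 4; each point is 1 library and each line the mean of 3. Cth separates by label in cluster 0 (1.76 to 1.98 against 4.13 to 4.56 CPM), whereas Gcat and Phgdh overlap there.

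In the Csf1r/Cd68 lineage, 3 of the 9 enzymes lay above shNC in all 3 libraries labelled shPgk1 on both scales. The share over all genes was 15.9% on plain CPM and 10.8% with TMM scaling, and nothing is read from the count because the contrast chose the enzymes. Shmt1 stood at 3.05, 3.14 and 3.18 CPM against 4.02, 4.22 and 4.69, with a log2 fold of 0.40 ± 0.14. Gcat stood at 6.04, 6.28 and 6.16 CPM against 7.67, 9.29 and 9.69 (0.46 ± 0.12). Phgdh stood at 7.75, 5.65 and 7.18 CPM against 8.33, 8.48 and 10.4 (0.34 ± 0.14). The Phgdh and Gcat levels are not set apart from the marker background. In cluster 1, the larger of the 2 main clusters, log2 folds were 0.56 ± 0.20 for Shmt1, 0.47 ± 0.14 for Gcat and 0.35 ± 0.14 for Phgdh. The groups did not overlap there for these 3. In cluster 2 the values were 0.26 ± 0.22, 0.38 ± 0.18 and 0.32 ± 0.21, and of the 3 the groups were apart for Gcat. These cells are part of the lineage sums. The share of all genes apart inside a cluster was not computed, so nothing is read from this. Cth, from 9 to 28 counts per library, overlapped at 0.325, 0.377 and 0.330 CPM against 0.666, 0.365 and 0.864, with a log2 fold of 0.84 ± 0.36, the largest of the 9 in this lineage. The other 5 enzymes had log2 folds between -0.08 ± 0.11 (Psph) and 0.29 ± 0.15 (Shmt2).

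The epithelial markers in this lineage moved with the label as well. They summed to 442 to 640 CPM in shNC and 665 to 936 under the shPgk1 label, 5 of 11 lay above without overlap, and 0 of 11 were at 0 in every library. As a share of the tumour-like level of the same library they were 6.69 to 9.77% and 9.66 to 11.5%, beside 7.40 to 10.2% and 8.92 to 11.1% for Phgdh, 15.4 to 16.9% and 15.6 to 20.1% for Gcat, and 31.2 to 35.4% and 41.3 to 51.7% for Shmt1. The part of free tumour RNA in the 3 differences was not tested. For Mthfd2, the share was 97.6 to 127% in shNC and 140 to 154% under the shPgk1 label. Its level in this lineage overlapped, at 24.2, 28.7 and 22.2 CPM against 28.9, 23.2 and 30.7 (0.08 ± 0.13). The tumour-like level that divides this share had a mean of 22.2 CPM in shNC and 19.0 under the shPgk1 label.

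The other 5 lineages gave few values apart. In T or NK-like cells Psph stood at 74.5, 74.0 and 68.7 CPM against 62.3, 60.2 and 66.9, with a log2 fold of -0.20 ± 0.11, where 6.89% of all genes lay below without overlap on plain CPM and 7.21% with TMM scaling. In fibroblast-like cells Gcat stood at 9.07, 8.69 and 7.88 CPM against 14.1, 12.2 and 11.3 (0.50 ± 0.18), where 8.5% and 6.19% of all genes lay above. Conventional dendritic-like cells showed Gcat at 10.3, 12.7 and 11.2 CPM against 19.6, 15.1 and 14.6 (0.48 ± 0.28), where 8.65% and 6.48% lay above. As a share of its tumour-like level, Gcat was at 21.7 to 28.6% in fibroblast-like and 26.3 to 39.7% in conventional dendritic-like cells. Both were above the summed epithelial markers but inside the range of single markers (10.9 to 37.3% and 9.89 to 80.8%). Neither level is set apart from background, and the part of free tumour RNA in these differences was not tested. In neutrophil-like cells Shmt2 lay above from 3 to 10 counts per library, too few to be fitted, where 9.72% of all genes lay above. Cth in conventional dendritic-like cells lay below on plain CPM from at most 5 counts, where 5.54% did so, and Psph in fibroblast-like cells lay below with TMM scaling alone (-0.23 ± 0.12), where 7.84% did so. In endothelial-like cells 0 of 9 enzymes were apart, where 7.87% of all genes lay above and 5.27% below on plain CPM, and 6.3% and 6.44% with TMM scaling. The filter on low counts passed 9 enzymes in tumour-like cells and in the Csf1r/Cd68 lineage, 8 in T or NK-like and in fibroblast-like cells, 7 in conventional dendritic-like, 5 in endothelial-like and 2 in neutrophil-like cells.

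Whether the enzymes differ with the share of cell-cycle RNA among cells of one lineage was not used to choose them and could be tested. Cells of each library were thinned to 3000 UMIs and ranked by the share of UMIs in 43 cell-cycle genes, none of them among the 9 enzymes. The upper and lower terciles were summed from unthinned counts and compared within libraries by edgeR with Benjamini-Hochberg adjustment. In tumour-like cells each tercile held 5777 cells over the 6 libraries, and 3321 of 20656 cells were too shallow to rank. The upper tercile began at 3 cell-cycle UMIs of 3000 and the lower ended at 1, with 1721 and 4167 cells at these cuts, so the terciles are ranges of a score and not dividing and resting cells.

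In tumour-like cells 8 of the 9 enzymes were higher in the upper tercile, each in 6 of 6 libraries, where 26.8% of all genes tested were higher and 23.8% lower. In all, 50.6% of those 13707 genes were called. The median log2 difference was 0.92 over the 9 enzymes and 0.01 over all genes. In the serine branch, Phgdh stood at 120, 106 and 86.4 CPM in the upper tercile of shNC and 123, 115 and 127 under the shPgk1 label. Its lower tercile stood at 56.4, 51.3 and 51.2, then 63.2, 55.3 and 63.5, a log2 difference of 0.92 ± 0.04 (edgeR adjusted p = 5.55e-20). All 6 upper values lay above all 6 lower ones. Psat1 showed the largest difference among the 9, from 4.50 to 7.78 CPM in the lower tercile to between 13.4 and 26.9 in the upper, 1.87 ± 0.08 on the log2 scale (edgeR adjusted p = 5.84e-21). Psph differed least of the 3, at 30.1 to 38.7 CPM against 41.0 to 49.8, 0.34 ± 0.05 on the log2 scale (edgeR adjusted p = 5.11e-07).

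Both serine hydroxymethyltransferases were higher in the upper tercile. Shmt1 stood at 13.5, 13.5, 14.9, 14.5, 14.6 and 14.1 CPM in the upper tercile and at 4.60, 5.23, 6.10, 4.43, 4.86 and 4.23 in the lower, with shNC before the shPgk1 label. The groups were far apart, with a log2 difference of 1.50 ± 0.09 (edgeR adjusted p = 1.24e-17). Shmt2 stood at 19.0 to 25.4 CPM below and 41.9 to 52.3 above (1.05 ± 0.05, edgeR adjusted p = 8.28e-20). Mthfd2 went from 8.83 to 15.7 CPM in the lower tercile to between 24.4 and 37.6 in the upper (1.24 ± 0.06, edgeR adjusted p = 4.81e-19). Mthfd1l, which acts after Mthfd2 in the same route, differed less, with a log2 difference of 0.38 ± 0.06 (edgeR adjusted p = 2.88e-07). Gcat differed by 0.75 ± 0.06 (edgeR adjusted p = 3.58e-10), from 23.0 to 39.9 CPM below to between 49.4 and 62.6 above.

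Cth did not pass the test. In shNC it stood at 2.11, 1.97 and 2.05 CPM in the upper tercile and 1.75, 2.67 and 2.17 in the lower. Under the shPgk1 label it stood at 4.01, 3.23 and 4.06 against 3.70, 4.56 and 3.78. The log2 difference was -0.15 ± 0.14 (edgeR adjusted p = 0.388), and the upper tercile was higher in 3 of 6 libraries. All 6 values of the shPgk1 label, from either tercile, lay above all 6 of shNC. The terciles are parts of the lineage sums already given, and the contrast between the labels chose the enzymes. The Cth values by label are therefore a description. Cells of the upper tercile were deeper, with median UMIs of 10398.5 to 16744 against 8060.5 to 12941. Within cluster 0 alone the same 8 enzymes passed, with log2 differences from 0.34 for Mthfd1l to 2.02 for Psat1. The share of all genes called within cluster 0 was not computed, so that count has no background beside it. The 16 markers of the Csf1r/Cd68 lineage summed to between 1.01 and 1.10 times their lower-tercile level. This sum was higher in 6 of 6 libraries, with 3 of 16 markers higher in every library and 1 higher in none. The part of such RNA in the tercile differences was not tested.

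**Figure D5:**
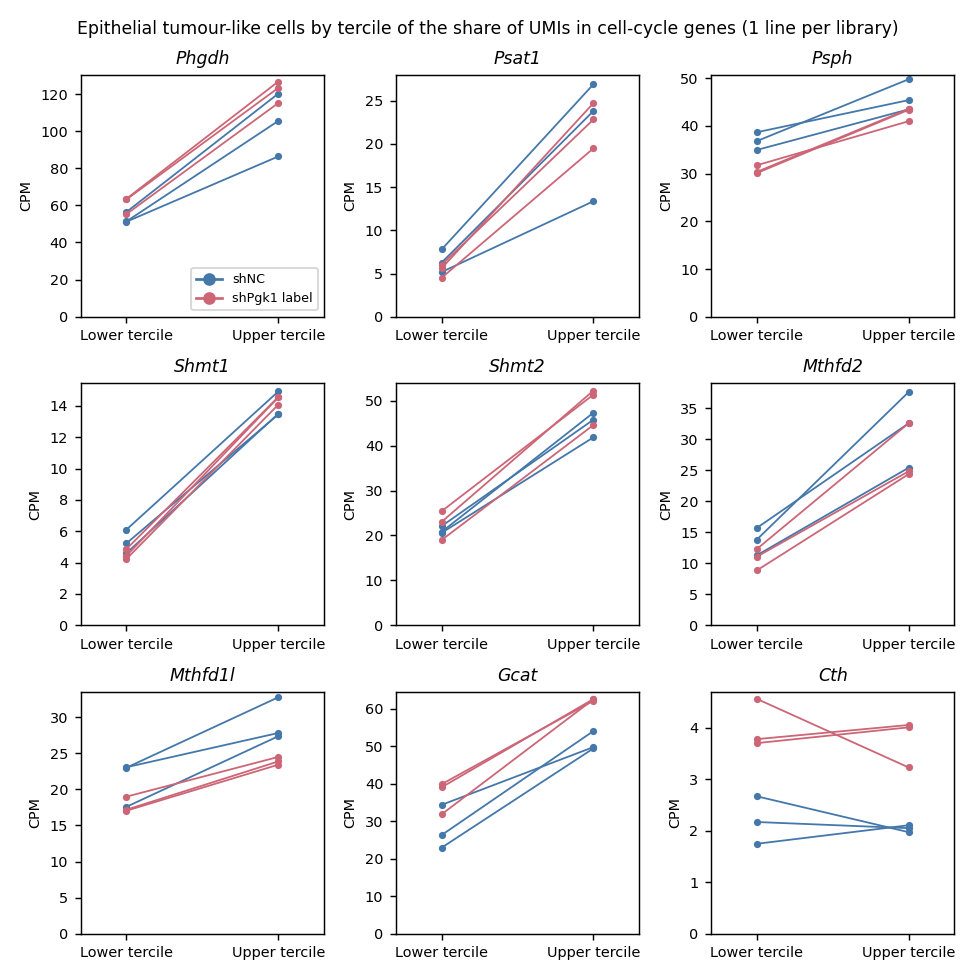
CPM of each enzyme in tumour-like cells of the lower and upper tercile of the cell-cycle share; each line joins the 2 values of 1 library, coloured by label. All 6 lines go up for 8 enzymes, and for Cth 3 go up and 3 go down.

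In the Csf1r/Cd68 lineage 6 of the 8 enzymes tested were higher in the upper tercile, each in 6 of 6 libraries, where 11.7% of all genes were higher and 12.4% lower. Each tercile held 3858 cells, the upper beginning at 2 cell-cycle UMIs of 3000 and the lower ending at 1 (0 in 1 library), with 2012 and 3709 cells at these cuts. The median UMIs were 13223 to 19641 above and 13948.5 to 17285 below. Psat1 differed by 0.78 ± 0.10 on the log2 scale (edgeR adjusted p = 8.13e-07), Shmt1 by 0.76 ± 0.15 (edgeR adjusted p = 0.000182) and Shmt2 by 0.69 ± 0.07 (edgeR adjusted p = 4.18e-09). Gcat, not set apart from the marker background here, differed by 0.55 ± 0.10 (edgeR adjusted p = 0.000168), Mthfd2 by 0.42 ± 0.07 (edgeR adjusted p = 0.000182) and Psph by 0.17 ± 0.06 (edgeR adjusted p = 0.0316). Phgdh, not set apart from the marker background in this lineage, had 0.27 ± 0.11 (edgeR adjusted p = 0.081, higher in 5 of 6 libraries) and Mthfd1l 0.01 ± 0.07 (edgeR adjusted p = 0.946). Cth had too few counts to be tested. The epithelial markers summed to between 0.975 and 1.12 times their lower-tercile level. This sum was higher in 5 of 6 libraries, with 0 of 11 markers higher in every library and 0 higher in none. The split of called genes depended on the scaling: 49.3% were higher with TMM and 77.3% with plain CPM in this lineage, and 53.3% and 65.1% in tumour-like cells. The call for Psph was lost under 7 of its alternatives, with log2 differences of 0.09 to 0.16. These were DESeq2, the unthinned share, the split of cells at the median, and the fits without shNC replicate 1, 2 or 3 or shPgk1 replicate 2. Phgdh passed on plain CPM, at 0.35.

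The cell-cycle difference of each enzyme was then compared between the labels. In tumour-like cells 0 of 9 passed by edgeR, where 0.0687% of all genes did, and 3 had an unadjusted p under 0.05, where 8.65% of all genes had one. The 3 were Psat1, whose log2 difference was larger by 0.41 ± 0.16 under the shPgk1 label (edgeR adjusted p = 0.465), Psph by 0.24 ± 0.09 (edgeR adjusted p = 0.444) and Shmt1 by 0.36 ± 0.17 (edgeR adjusted p = 0.568). Of 8 enzymes tested in the Csf1r/Cd68 lineage 0 passed, where 0.102% of all genes did, and Mthfd2 alone had an unadjusted p under 0.05 (0.32 ± 0.12, edgeR adjusted p = 0.532), where 7.6% of all genes had one. Pgk1 itself was lower in the upper tercile, with a log2 difference of -0.47 ± 0.05 in tumour-like cells and -0.20 ± 0.03 in the Csf1r/Cd68 lineage.

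Around the 9 enzymes, 84 other genes of 8 pathway lists were read in the same fits. In tumour-like cells 34 of 72 tested were higher in the upper tercile and 17 were lower, beside 26.8% and 23.8% of all genes, so the count of lower genes is near that background. All calls were by edgeR after adjustment. Folate cycle genes gave 6 higher and 2 lower of 12, with the thymidylate synthase Tyms at 2.47 ± 0.06 (edgeR adjusted p = 9.76e-25) and the cytosolic folate enzyme Mthfd1 at 0.81 ± 0.06 (edgeR adjusted p = 6.76e-15). Tyms is also known as a gene of dividing cells. Purine synthesis gave 5 higher of 6 and the methionine cycle 5 higher of 8, with none lower in either. The list of ATF4 and its targets gave 9 higher and 2 lower of 15. Aars, an alanyl-tRNA synthetase in that list, differed by 0.74 ± 0.04 (edgeR adjusted p = 7.3e-18), while the stress gene Nupr1 was lower, at -0.47 ± 0.04 (edgeR adjusted p = 3.42e-10). Genes that use serine gave 0 higher and 5 lower of 10, and among them Serinc3, named for serine incorporation into membranes, was at -0.44 ± 0.04 (edgeR adjusted p = 8.1e-11). Transport and the cysteine and glutathione list gave 4 higher and 4 lower each, of 8 and 11. Of their lower members, those with the smallest p were Sfxn3, of a family of mitochondrial serine carriers (-0.58 ± 0.05, edgeR adjusted p = 9.37e-12), and Csad, which takes cysteine towards taurine (-0.92 ± 0.08, edgeR adjusted p = 1.31e-12). Glycine cleavage gave 1 higher of 2.

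Of these other genes, 19 of 71 were higher in the Csf1r/Cd68 lineage and 9 were lower, beside 11.7% and 12.4% of all genes. The count of lower genes is near that background. In all, 24.2% of all genes were called. Purine synthesis gave 6 higher of 6, including Paics (0.45 ± 0.05, edgeR adjusted p = 5.56e-08). The folate list gave 3 higher and 2 lower of 13, with Tyms at 1.95 ± 0.06 (edgeR adjusted p = 2.42e-19). The mitochondrial serine transporter Sfxn1 was higher by 0.40 ± 0.06 (edgeR adjusted p = 1.28e-05). The translation regulator Eif4ebp1 was lower (-0.32 ± 0.03, edgeR adjusted p = 7.47e-09), as were Sptlc2, a subunit of the enzyme that joins serine to a fatty acid (-0.17 ± 0.04, edgeR adjusted p = 0.000866), the amino acid transporter Slc38a2 (-0.16 ± 0.04, edgeR adjusted p = 0.00104, lower in 5 of 6 libraries) and the folate enzyme Mthfs (edgeR adjusted p = 0.00179). By DESeq2 17 of these genes passed in this lineage instead of 28.

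Between the labels, 8 of 77 other pathway genes were higher and 2 lower in tumour-like cells, where 6.52% and 6.78% of all genes were and 13.3% were called in all. An unadjusted p under 0.05 was found for 19 of the 77 and for 35.5% of all genes. Gclm, a subunit of the enzyme that starts glutathione synthesis from cysteine, stood at 33.5, 27.4 and 30.8 CPM against 41.1, 38.5 and 45.2, without overlap (log2 fold 0.58 ± 0.11, edgeR adjusted p = 0.024). Tyms stood at 48.3, 47.5 and 53.5 CPM against 62.3, 62.5 and 60.8 (0.45 ± 0.09, edgeR adjusted p = 0.0266). The purine synthesis enzyme Paics stood at 81.1, 69.4 and 59.5 CPM against 87.5, 94.3 and 91.2 (0.52 ± 0.12, edgeR adjusted p = 0.0337). Mtap, Serinc2, Mpst and Gcsh, named after their values were seen, were also higher. Sesn2, a stress gene and target of ATF4, was lower at 7.00, 10.1 and 12.6 CPM against 5.43, 5.60 and 5.15 (-0.73 ± 0.18, edgeR adjusted p = 0.0365), and so was Serinc5 (-0.59 ± 0.18, edgeR adjusted p = 0.0494). By list, folate and the cysteine and glutathione list gave 2 higher each, of 13 and 12, and the glycine cleavage, purine, methionine and serine use lists 1 each, of 4, 6, 9 and 10. Cbs, which acts just before Cth in transsulfuration, stood at a mean of 0.305 CPM in shNC and 0.342 under the shPgk1 label, with a log2 fold of 0.35 ± 0.40.

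These calls rest on the choice of libraries and scaling. Plain CPM gave 2 higher and 6 lower, the gate on markers 2 in all and the lineage without cluster 4 gave 5. Leaving out shNC replicate 2, shPgk1 replicate 2 or shPgk1 replicate 3 left 0 calls, and leaving out shNC replicate 3 left 1. Of 74 such genes in the Csf1r/Cd68 lineage, 0 passed by edgeR, where 0.833% of all genes did. An unadjusted p under 0.05 was found for 17 of the 74 and for 17.8% of all genes, and DESeq2 called 3. The smallest p were those of Sesn2 (-0.61 ± 0.13, edgeR adjusted p = 0.0685) and Mtap, of the methionine cycle list (0.43 ± 0.11, edgeR adjusted p = 0.0974). In each of the other 5 lineages 0 passed by edgeR and by DESeq2, and the lowest edgeR adjusted p was 0.136. Over all genes, edgeR called 0.0677% in T or NK-like, 0.0231% in conventional dendritic-like, 0.056% in endothelial-like, 0.0245% in fibroblast-like and 0.0344% in neutrophil-like cells. Unadjusted p were under 0.05 for 6, 4, 6, 7 and 3 pathway genes in the same order, and for 8.89%, 8.39%, 6.84%, 8.81% and 7.83% of all genes.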

How the data were processed

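The authors deposited droplet count matrices (UMI counts per gene and barcode, written by PISA 0.12 per the file headers) for 6 libraries. Seurat 4 and the build GRCh38 are named per the submitters' processing notes, although the gene names are those of mouse; aligner, annotation and strand setting: not given in the sources used here. Separate gene models that share a name, as for Gcat, cannot be told apart in these counts. Barcodes are numbered names, so cell barcodes shared between libraries could not be counted. Columns of other samples: 0.

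Cells with at least 500 UMIs, 300 genes and at most 20% mitochondrial counts were kept. Scrublet's own threshold marked 0 cells and was not used; 804 cells with a doublet score above 0.25 were left out. Log-normalised counts of 2000 variable genes gave 30 principal components and 16 Leiden clusters (15 neighbours, resolution 0.5), named by marker lists. The marker names of the rule gated 18128 cells as tumour-like, of which 17298 were among the 20656 clustered ones. Raw counts were summed per library and lineage and fitted in edgeR (quasi-likelihood, TMM, filterByExpr, Benjamini-Hochberg over all genes, threshold 0.05), with library as a block for the cell-cycle comparison. Standard errors are the absolute log2 fold divided by the square root of F. Library pairs differed far beyond counting noise (chi-square per degree of freedom 24.3 to 278), so none was treated as a repeat deposit of another; whether animals or cultures were separate is not shown by this. Depth sets the precision of low genes: floors for 0 counts use 3 counts and, like CPM, cover counting error only. Members and lists were chosen with earlier results of these data known. Beside the 9 members and Pgk1, up to 4 higher and 4 lower list genes with the smallest p were named per lineage and comparison, up to 2 where none passed, and the 3 genes nearest each member among those with a mean of at least 20 CPM. Some genes that meet these rules are not reported here. Alternatives were DESeq2, RLE factors, plain CPM, no filter, a replicate block, marker gates, no doublet limit, other cell-cycle splits and leaving out each library. Plain CPM, leaving out cluster 4, fits within 1 cluster and the comparison of cell-cycle differences between labels in the Csf1r/Cd68 lineage were added after seeing the data. Fits were tested on simulated data. Versions were Python 3.11.15, scanpy 1.11.5, leidenalg 0.10.2, R 4.3.3, edgeR 4.0.16, DESeq2 1.42.0 and limma 3.58.1.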

Additional observations from a re-analysis of the deposited data

How the results depend on the processing

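Member folds between the labels moved by less than the spread between libraries in 569 alternative values and by more in 16, and none reversed among called values. Cell-cycle differences of the members kept their direction and call in 213 alternative values. Of the others, 7 lost the call, all for Psph in the Csf1r/Cd68 lineage, and 1 gained it (Phgdh there on plain CPM). Members called in tumour-like cells stayed at 8 in every setting. In the Csf1r/Cd68 lineage they numbered 5 to 7 (5 to 6 without single libraries). Members whose cell-cycle difference differed between the labels stayed at 0.

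Counts of other pathway genes moved more. By cell-cycle share in tumour-like cells they were 51, and 44 to 52 without single libraries; in the Csf1r/Cd68 lineage they were 28, DESeq2 gave 17, and leaving out single libraries gave 23 to 28. Between the labels in tumour-like cells they were 10, the marker gate gave 2, the lineage without cluster 4 gave 5, and leaving out single libraries gave 0 to 11. In the Csf1r/Cd68 lineage they were 0, and 4 without the filter on low counts, 3 by DESeq2 and 0 to 3 without single libraries. In the other 5 lineages together they were 0, and 3 without the filter and 1 with the marker gate. The cause of these moves was not tested.

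The replicate numbers were not seen to pair the libraries. Correlations of same-numbered libraries ran from -0.157 to 0.126, and 0 lineages had every pair over 0.1. Of 21 shNC sums (3 libraries in each of 7 lineages), 6 matched the shPgk1 library of their own number best. Sums of the same library are not independent, so this check is a description. With the number as a replicate block, 4 other pathway genes were called in tumour-like cells instead of 10. Counts per library limit Cth outside tumour-like cells and every enzyme in neutrophil-like cells.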
